A study of Mus musculus with 6 samples.

Results

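The set comprises 10 G-protein-coupled receptors of the pancreatic islet taken by gene name from a table of 54556 genes: *Glp1r*, *Gipr*, *Gcgr*, *Gpr119*, *Ffar1*, *Chrm3*, *Adra2a*, *Sstr3*, *Sstr2* and *Galr1*. All 10 were found in the table, and 9 were abundant enough to be tested. The study asked what the RNA methyltransferase METTL3 does in the islet β cell. It sequenced islet RNA of C57BL/6 mice at 8 weeks of age, fed normal chow, in 3 libraries labelled as the β-cell knockout of *Mettl3* (BKO, *Mettl3* flox/flox with RIP-Cre) and 3 libraries labelled *Mettl3* flox/flox with no Cre named. Both groups thus carry the floxed *Mettl3* alleles. RIP-Cre is driven by the rat insulin promoter, so recombination is directed to β cells and the other islet cells keep the floxed gene. Cre without the floxed alleles is not among the groups, so an effect of Cre and an effect of the deletion cannot be told apart. Islets hold several cell types, and in bulk RNA fewer cells of a type and less RNA per cell cannot be told apart.

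The heterotrimeric G protein that a receptor engages sets what it does to the β cell. Receptors coupled to Gs raise cyclic AMP and amplify insulin secretion once glucose has risen, which is how the gut hormones GLP-1 and GIP act. Receptors coupled to Gq act through phospholipase C, inositol trisphosphate and diacylglycerol and also favour secretion. Receptors coupled to Gi lower cyclic AMP and carry the inhibition of insulin release by noradrenaline, somatostatin and galanin.

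The libraries held 16398862 to 18387313 reads. The check of the target comes first: *Mettl3* was at 4.06, 4.20 and 4.15 FPKM (fragments per kilobase of gene model, scaled for library size) in the libraries labelled BKO, against 3.42, 2.89 and 3.93 FPKM in those labelled flox/flox. Every library labelled BKO was above every library labelled flox/flox. The log2 difference was 0.25 ± 0.11 (SE, adjusted p = 0.12 by limma), so a loss of the transcript was not seen over the whole gene. Which exons the floxed allele loses is not given in the sources used here. Directions below therefore rest on the labels, and BKO libraries means the libraries labelled BKO. Markers of other tissues also moved with the groups. The summed FPKM of 9 enterocyte genes was 75.4, 625 and 313 in BKO 1, 2 and 3, against 28.3 to 31.2 in the flox/flox libraries, and *Alpi* was at 0 in all flox/flox libraries. The sum of 8 lymphocyte genes was 72.5 to 103.9 in BKO against 3.69 to 6.68 in flox/flox. Sums of 8 endothelial genes (320 to 366 in BKO against 615 to 646), 8 acinar genes (294 to 557 against 659 to 2044) and 10 β-cell genes (112093 to 125413 against 257106 to 319383) were lower in BKO. *Ins1* and *Ins2* made up most of the β-cell sum. Of its 10 genes, 9 passed as lower in the test below, against 17.2% of all tested genes. *Iapp* did not pass (mean 15390 FPKM in BKO and 16564 FPKM in flox/flox). The sum of 4 δ-cell genes was 2574 to 4178 in BKO against 4575 to 5088 in flox/flox. The sum of 8 α-cell genes overlapped between the groups (6498 to 10153 against 5718 to 8998). *Sst* made up most of the δ-cell sum and *Gcg* most of the α-cell sum. Of 7 tested α-cell genes 1, *Gc*, passed as higher and 0 as lower, beside 16.9% and 17.2% of all tested genes. The part of these shifts in the receptor results below was not tested. The log2 differences, list counts and pair ratios were also computed without BKO 2 and 3, the libraries with most enterocyte signal. That leaves BKO 1 alone, which is then assumed to vary like the flox/flox libraries. BKO 1 still carries the lymphocyte, endothelial, acinar and β-cell shifts, and its enterocyte sum of 75.4 was above that of every flox/flox library. *Vil1* made up most of the flox/flox enterocyte sums (mean 28.1 FPKM) and was at 37.6 FPKM in BKO 1. *Rbp2*, *Fabp2* and *Alpi* were at 9.72, 8.95 and 8.13 FPKM in BKO 1, against flox/flox means of 0.139, 0.0956 and 0 FPKM. *Lct*, at 0.0899 FPKM in BKO 1, lay within the flox/flox range of 0.0103 to 0.162 FPKM. Fits without BKO 2 and 3 are thus not free of enterocyte signal. In both groups the third library was nearer to each of the others than those were to each other: the chi-square per degree of freedom between read counts was 10.7 and 9.47 for BKO 3 against BKO 1 and 2, and 29.4 between BKO 1 and 2. It was 6.51 and 13.6 for flox/flox 3 against flox/flox 1 and 2, and 26.5 between flox/flox 1 and 2. With the third library of both groups left out, *Glp1r*, *Gipr* and *Ffar1* passed the test below and the other receptors did not, with 925 of all tested genes passing in place of 4935.

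Across the set, 6 receptors fell and 2 rose in the libraries labelled BKO, and 1 of the 9 tested, *Sstr3*, did not pass the test. A gene passed at an adjusted p under 0.05 (limma on log2(FPKM + 0.5), 14497 genes). Of all tested genes, 34.0% passed, 17.2% as lower and 16.9% as higher. Leaving out 1 library at a time left 5 to 8 of the 9 tested receptors called, with the fewest without flox/flox 3 (1 higher and 4 lower). Over all tested genes, 2780 to 4236 passed in these fits in place of 4935, with 3291 without flox/flox 3. Libraries of the groups did not overlap for any of the 10 receptors, against 50.5% of all tested genes. The receptors' summed level was 205.7 to 206.6 FPKM in BKO libraries and 337.7 to 359.5 FPKM in flox/flox libraries. The decreases were largest in the GIP, fatty acid and glucagon receptors, and the increases were in *Gpr119* and *Galr1*. Beside them, the 10 β-cell genes above had log2 differences from -2.77 (*Mafa*) to -0.12 (*Iapp*), with a median of -0.99. By level in FPKM, the order in the BKO libraries was *Sstr3*, *Gipr*, *Glp1r*, *Adra2a*, *Galr1*, *Gcgr*, *Ffar1*, *Gpr119*, *Chrm3* and *Sstr2*. In that order the ranges of *Glp1r* and *Adra2a* overlapped, as did each neighbouring pair among *Galr1*, *Gcgr*, *Ffar1* and *Gpr119*. In the flox/flox libraries *Gipr* came first, followed by *Sstr3*, *Glp1r*, *Adra2a*, *Ffar1*, *Gcgr*, *Galr1*, *Gpr119*, *Chrm3* and *Sstr2*. There the neighbours whose ranges overlapped were *Sstr3* and *Glp1r*, *Glp1r* and *Adra2a*, and *Ffar1* and *Gcgr*. Both orders also depend on the gene model of each receptor.

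**Figure D1:**
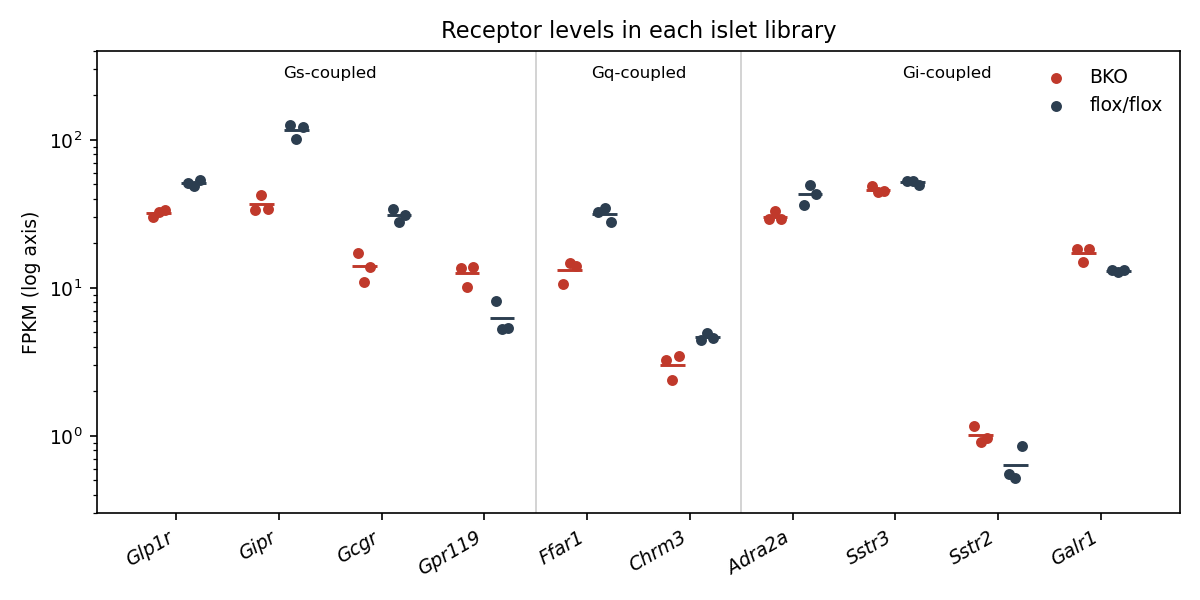
FPKM of each receptor (log axis) in every library, with BKO libraries in red to the left of flox/flox libraries in dark blue; lines are means of 3 libraries. The groups are apart for each of the 10 receptors, with *Gpr119*, *Sstr2* and *Galr1* higher in BKO and the other members lower.

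Among the receptors coupled to Gs, *Gipr*, *Gcgr* and *Glp1r* fell and *Gpr119* rose. *Gipr* encodes the receptor for GIP, the incretin of the upper gut, and lies at 7:19156061-19166127 on the minus strand (GRCm38). It was at 33.8, 42.7 and 34.3 FPKM in BKO libraries, against 125.7, 101 and 121.8 FPKM in flox/flox libraries. The highest BKO library was far below the lowest flox/flox library. The mean was 36.9 ± 5.02 FPKM in BKO and 116 ± 13.3 FPKM in flox/flox (SD, n = 3 each), which is 31.8% of the flox/flox level. The log2 difference was -1.64 ± 0.13 (SE, adjusted p = 0.000361 by limma). Of the tested genes, 131 (0.904%), *Gipr* included, had a log2 difference at or below this value.

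*Glp1r*, the receptor for GLP-1 and the target of the incretin drugs, fell less. The gene lies at 17:30901867-30936510 on the plus strand. It was at 29.98, 32.6 and 33.6 FPKM in BKO libraries, against 51.5, 48.9 and 53.5 FPKM in flox/flox libraries. Replicates were tight on both sides and the groups did not overlap. The means were 32.1 ± 1.87 FPKM in BKO and 51.3 ± 2.33 FPKM in flox/flox (SD, n = 3 each), with a log2 difference of -0.67 ± 0.07 (SE, adjusted p = 0.00112 by limma). With libraries scaled to their own read totals, the log2 difference of *Glp1r* was -0.27 and still passed the test (adjusted p = 0.0241). The deposited model of *Glp1r* is 1480 bases long and ends at position 30936510, whereas the GENCODE M21 transcript with the longest coding sequence has 5811 bases, of which 4359 are 3′ UTR. That bears on its level relative to other genes. Whether it also bears on its ratio between groups was not tested.

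*Gcgr* encodes the glucagon receptor, through which α cells act on neighbouring β cells. It was at 17.3, 10.9 and 13.8 FPKM in BKO libraries, against 34.1, 27.9 and 31.1 FPKM in flox/flox libraries. All BKO libraries were below all flox/flox libraries, and BKO 2 was lowest. The means were 14.0 ± 3.20 FPKM in BKO and 31.0 ± 3.11 FPKM in flox/flox (SD, n = 3 each), with a log2 difference of -1.14 ± 0.17 (SE, adjusted p = 0.00342 by limma). With BKO 1 as the only BKO library it was -0.82, with an adjusted p of 0.0548. *Gcgr* overlaps the antisense gene *Gm11789*, which was at 5.57, 1.86 and 3.69 FPKM in BKO and 2.49, 2.69 and 3.44 FPKM in flox/flox. Whether the libraries kept strand is not stated, so reads of these genes may not be separated.

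*Gpr119*, a receptor for lipid amides such as oleoylethanolamide found on islet and gut endocrine cells, was the receptor of the set with the largest increase. It was at 13.6, 10.2 and 13.8 FPKM in BKO libraries, against 8.19, 5.28 and 5.37 FPKM in flox/flox libraries. The groups did not overlap, and BKO 2 was the lowest of its group. The means were 12.5 ± 2.03 FPKM in BKO and 6.28 ± 1.65 FPKM in flox/flox (SD, n = 3 each), with a log2 difference of 0.96 ± 0.19 (SE, adjusted p = 0.0108 by limma). Of the tested genes, 928 (6.40%), *Gpr119* included, had a difference at or above this value. With BKO 1 as the only BKO library the difference was as large, at 1.08, with an adjusted p of 0.121. The sum of 6 enteroendocrine genes was 2.63, 5.60 and 3.80 FPKM in BKO 1, 2 and 3. It was 0.101, 0.807 and 0.677 FPKM in flox/flox 1, 2 and 3. Of these genes, *Gip*, *Tph1* and *Nts* were at 0 in all flox/flox libraries. *Tph1* and *Nts* had at most 3 reads and 1 read in any BKO library. The part of enteroendocrine cells in the difference of *Gpr119* was not tested.

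The start regions of these genes differ in base composition. Shown are RefSeq promoters (GRCm38.p6), from 250 bases before to 50 bases after the start, of a pair of receptors that fell and of the one that rose. They are *Glp1r* at chr17:30901617-30901916 (plus strand), *Gcgr* at chr11:120530477-120530776 (plus strand) and *Gpr119* at chrX:48674429-48674728 (minus strand). Capitals mark matches on either strand to TGCTGA (a core bound by MAF factors), TGACG (the core of the cyclic AMP response element) or CAGNTG (the E-box class bound by NEUROD1).
Glp1r: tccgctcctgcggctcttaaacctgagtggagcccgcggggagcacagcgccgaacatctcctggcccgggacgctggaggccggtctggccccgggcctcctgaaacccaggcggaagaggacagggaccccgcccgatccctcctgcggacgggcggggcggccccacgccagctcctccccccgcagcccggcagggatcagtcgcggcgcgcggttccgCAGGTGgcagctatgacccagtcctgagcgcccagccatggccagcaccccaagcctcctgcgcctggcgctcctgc
Gcgr: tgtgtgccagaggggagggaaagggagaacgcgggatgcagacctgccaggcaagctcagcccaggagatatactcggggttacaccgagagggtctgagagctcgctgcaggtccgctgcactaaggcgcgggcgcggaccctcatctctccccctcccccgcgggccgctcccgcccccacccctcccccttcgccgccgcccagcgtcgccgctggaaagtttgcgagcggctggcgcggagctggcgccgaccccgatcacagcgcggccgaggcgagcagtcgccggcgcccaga
Gpr119: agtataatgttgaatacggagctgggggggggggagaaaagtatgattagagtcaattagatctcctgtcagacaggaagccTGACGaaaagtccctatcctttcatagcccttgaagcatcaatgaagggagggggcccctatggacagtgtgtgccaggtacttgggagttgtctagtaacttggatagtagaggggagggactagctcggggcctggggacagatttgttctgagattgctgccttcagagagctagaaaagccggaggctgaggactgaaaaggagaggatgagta
*Glp1r* and *Gcgr* had 73.7% and 71.7% G and C, *Gpr119* had 50.3%, and the median of 32851 promoters was 52.7%. Other receptors of the set that fell had 56.3% (*Ffar1*), 57.3% (*Chrm3*) and 68.7% (*Adra2a*). No promoter of *Gipr* was available. *Glp1r* held CAGNTG at -27 from the start, *Gpr119* held TGACG at -168, and *Gcgr* held none of the 3 motifs. Of all promoters, 51.4% held CAGNTG, 20.8% held TGACG and 19.5% held TGCTGA, so single matches are common, and a match describes letters only.

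The make-up of the Gs group also differed between the groups of libraries. *Gipr* made up 35.7 to 44.3% of the summed FPKM of *Glp1r*, *Gipr*, *Gcgr* and *Gpr119* in BKO libraries, against 55.2 to 57.5% in flox/flox libraries. The share of *Glp1r* was 31.7 to 35.2% in BKO and 23.5 to 26.7% in flox/flox, although its level was lower. *Gpr119* held 10.6 to 14.5% in BKO and 2.54 to 3.73% in flox/flox. The share of *Gcgr* overlapped, at 11.3 to 18.3% in BKO and 14.7 to 15.5% in flox/flox. These shares, like all ratios within a library, do not depend on how libraries are scaled. Over all 10 receptors, *Glp1r* held 14.6 to 16.3% in BKO and 14.3 to 15.2% in flox/flox, ranges that overlap, whereas *Sstr3* held 21.4 to 23.7% in BKO and 14.2 to 15.6% in flox/flox.

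**Figure D2:**
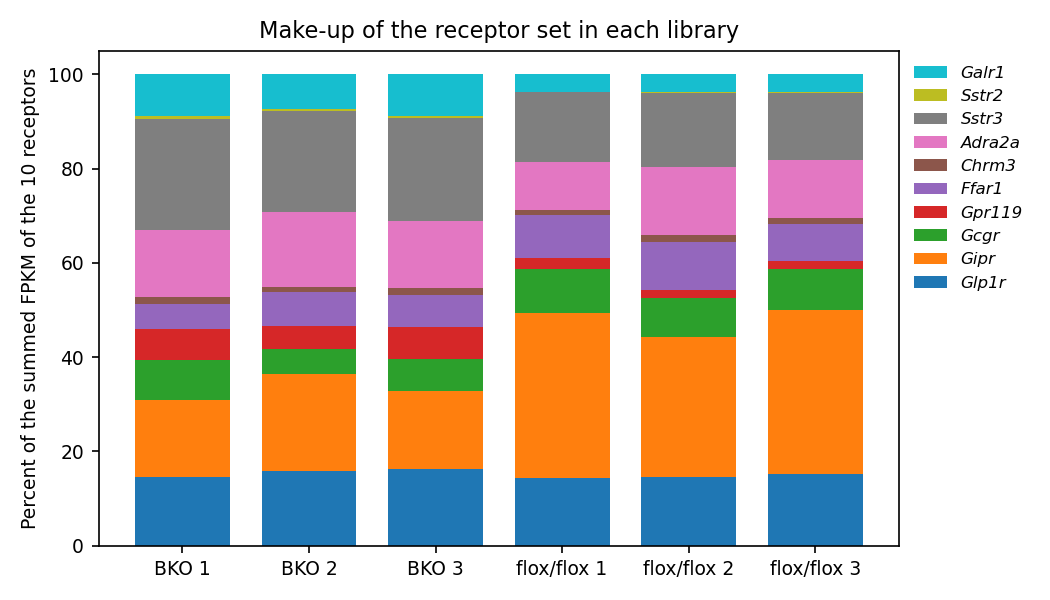
Percent of the summed FPKM of the 10 receptors held by each receptor, with 1 stacked bar per library, BKO libraries left of flox/flox libraries. *Gipr* takes 16.4 to 20.7% of the bar in BKO libraries and 29.9 to 35.0% in flox/flox libraries, and *Galr1* takes 7.28 to 8.88% in BKO and 3.66 to 3.80% in flox/flox.

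The receptors coupled to Gq, *Ffar1* and *Chrm3*, both fell. *Ffar1* encodes the receptor for medium and long chain fatty acids known as GPR40, which augments glucose-stimulated secretion in β cells. It was at 10.7, 14.7 and 14.0 FPKM in BKO libraries, against 32.4, 34.5 and 27.8 FPKM in flox/flox libraries. The groups were well apart. The means were 13.1 ± 2.14 FPKM in BKO and 31.6 ± 3.42 FPKM in flox/flox (SD, n = 3 each), or 41.6% of the flox/flox level, with a log2 difference of -1.24 ± 0.14 (SE, adjusted p = 0.00129 by limma). *Chrm3*, the muscarinic acetylcholine receptor of β cells, was low in all libraries, at 3.24, 2.39 and 3.48 FPKM in BKO against 4.47, 4.98 and 4.60 FPKM in flox/flox. BKO 2 was again lowest and no libraries overlapped between groups. The log2 difference of *Chrm3* was -0.56 ± 0.13 (SE, adjusted p = 0.0193 by limma). This call was lost with own-total scaling (-0.21, adjusted p = 0.226), without flox/flox 2 (-0.52, adjusted p = 0.0582), without flox/flox 3 (-0.58, adjusted p = 0.0553) and without BKO 2 and 3 (-0.47, adjusted p = 0.108). The gene at 13:9875486-10360847 spans several annotated antisense and intronic loci, none above 0.182 FPKM in any library.

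*Ffar1* lies on the minus strand in a cluster of fatty acid receptors, and the RefSeq promoter is shown because its neighbour fell with it. The window is chr7:30861421-30861720 (GRCm38.p6, minus strand), with the same 3 motifs in capitals.
Ffar1: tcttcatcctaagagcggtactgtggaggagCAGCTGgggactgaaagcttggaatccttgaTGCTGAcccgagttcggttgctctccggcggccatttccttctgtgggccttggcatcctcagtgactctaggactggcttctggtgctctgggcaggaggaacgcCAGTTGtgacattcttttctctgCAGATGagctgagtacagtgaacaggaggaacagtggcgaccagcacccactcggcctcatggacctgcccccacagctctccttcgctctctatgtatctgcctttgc
It held TGCTGA at -188 and CAGNTG at -219, -82 and -59 from the start. *Ffar3*, which encodes a receptor for short chain fatty acids, lies 1212 bases downstream of *Ffar1*, and in mouse β cells both have been described on a shared transcript. *Ffar3* was at 3.35, 5.12 and 3.63 FPKM in BKO libraries, against 16.2, 18 and 14.2 FPKM in flox/flox libraries, groups that were far apart. Its log2 difference was -1.89 ± 0.16 (SE, adjusted p = 0.000524 by limma). *Ffar2*, another receptor for short chain fatty acids 33615 bases from *Ffar1*, went the other way. It was at 32.3, 23.5 and 29.3 FPKM in BKO libraries, against 18.8, 16.8 and 15.9 FPKM in flox/flox libraries, with a log2 difference of 0.70 ± 0.13 (SE, adjusted p = 0.00809 by limma). All its BKO libraries were above all flox/flox libraries. *Ffar2* is also known from immune cells, whose marker sum was higher in BKO, and their part in its rise was not tested. *Ffar4*, the other long chain fatty acid receptor, was at 5.96, 4.59 and 4.47 FPKM in BKO and 4.22, 2.73 and 1.64 FPKM in flox/flox and did not pass the test (adjusted p = 0.0744).

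**Figure D3:**
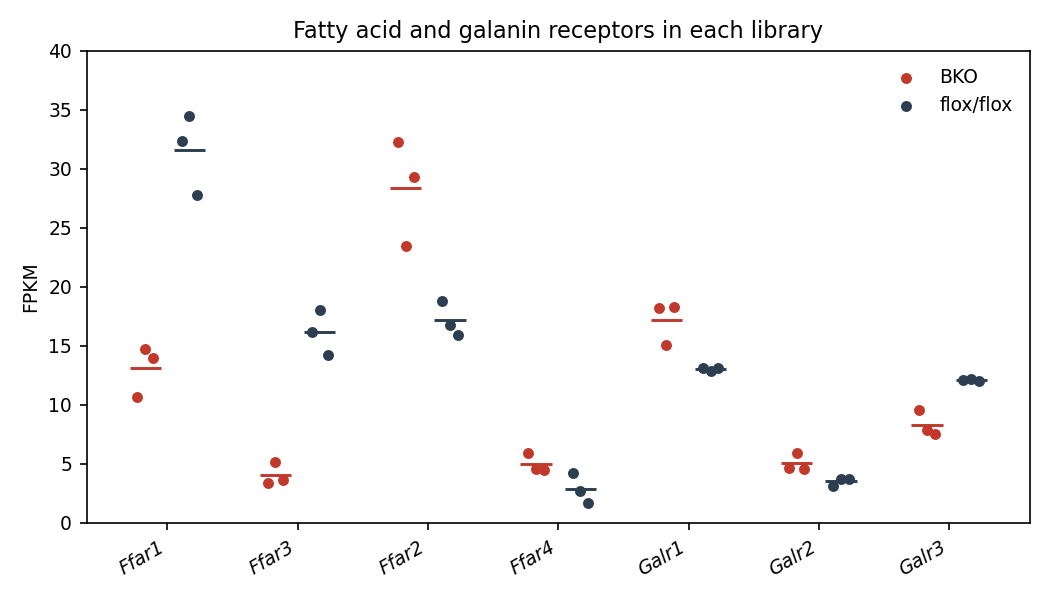
FPKM of the free fatty acid and galanin receptors in every library, BKO in red left of flox/flox in dark blue; lines are means of 3 libraries. *Ffar1* and its neighbour *Ffar3* are lower in BKO, whereas *Ffar2* is higher, and *Galr3* is lower in BKO while *Galr1* and *Galr2* are higher.

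METTL3 places N6-methyladenosine most often in sequences such as GGACT, frequently near the end of the coding sequence. The mark itself was not measured here, so the letters are given as context only. In GENCODE M21 transcripts, GGACT lay within 100 bases of the coding sequence end in 4 of the 10 receptors, against 24.9% of 11064 transcripts of tested genes. These were *Gcgr* and *Ffar1*, which fell, *Gpr119*, which rose, and *Sstr3*, which did not pass the test, so receptors of either direction had a match. The sites, with GGACT in capitals, are *Gcgr* chr11:120538614-120538638 (plus strand), *Ffar1* chr7:30860582-30860606 (minus), *Gpr119* chrX:48668996-48673251 (minus, across an exon junction) and *Sstr3* chr15:78539321-78539345 (minus), all GRCm38.
Gcgr: agcagcagtgGGACTggctgtgtgc
Ffar1: tgtgtgacgaGGACTcaaagaggaa
Gpr119: agacgctgcaGGACTtctctcaaga
Sstr3: ccctgcacagGGACTgctaaggagc
The motif starts 73, 28 and 76 bases before the coding sequence end in *Gcgr*, *Ffar1* and *Sstr3*, and 10 bases after it in *Gpr119*. *Gipr*, the receptor with the largest decrease, had its nearest match 529 bases past that end. Over whole transcripts the rate was 0.467 (*Sstr2*) to 1.85 (*Chrm3*) matches per kilobase, around a median of 1.06 over 11847 transcripts.

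Of the receptors coupled to Gi, *Adra2a* fell, *Galr1* rose, *Sstr3* did not pass the test and *Sstr2* was too low for it. *Adra2a*, at 19:54045182-54048982 on the plus strand, encodes the α2A-adrenoceptor through which noradrenaline inhibits insulin release. It was at 29.1, 32.8 and 29.0 FPKM in BKO libraries, against 36.4, 49.2 and 43.3 FPKM in flox/flox libraries. The groups did not overlap, but the flox/flox libraries were spread. The log2 difference of *Adra2a* was -0.49 ± 0.12 (SE, adjusted p = 0.0214 by limma). This call was lost without BKO 1 (adjusted p = 0.056), BKO 3 (0.0783) or flox/flox 3 (0.0686), without BKO 2 and 3 (-0.55, adjusted p = 0.177), and with own-total scaling, where the difference was -0.088 (adjusted p = 0.582). Its paralogs *Adra2b* and *Adra2c* had at most 5 and 4 reads in any library.

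*Sstr3*, a somatostatin receptor of β-cell primary cilia, was the receptor with the highest level in BKO libraries. It was at 48.8, 44.3 and 45.0 FPKM in BKO libraries, against 53.1, 52.7 and 49.7 FPKM in flox/flox libraries. The ranges were close without overlapping. The log2 difference was -0.17 ± 0.07 (SE, adjusted p = 0.0927 by limma), which did not pass the test. With own-total scaling the sign of *Sstr3* turned (0.23, adjusted p = 0.0149), and that scaling moved the median of all tested genes by 0.36. *Sstr2*, the somatostatin receptor typical of α cells, had only 52, 38 and 43 reads in BKO libraries and 18, 16 and 27 reads in flox/flox libraries. Its level was 1.164, 0.907 and 0.968 FPKM in BKO, against 0.555, 0.517 and 0.849 FPKM in flox/flox, all higher in BKO. Its mean of 0.826 FPKM was under the minimum of 1 for the test. Fitted with no minimum, it differed by 0.42 ± 0.19 on the log2 scale (SE, adjusted p = 0.238 by limma). *Sstr2* lies within *Slc39a11* on the opposite strand, a zinc transporter gene that averaged 6.45 FPKM in BKO and 3.91 FPKM in flox/flox, and without strand information their reads may not be separated. *Sstr3* made up 96.5 to 97.1% of the summed FPKM of the 5 somatostatin receptors in BKO and 96.9 to 98.3% in flox/flox, while *Sstr1* had at most 24 reads, *Sstr4* at most 10 and *Sstr5* at most 3 in any library. Somatostatin itself, *Sst*, was at 4111, 2526 and 3027 FPKM in BKO and 5008, 4505 and 4640 FPKM in flox/flox (log2 difference -0.58, adjusted p = 0.0645 by limma).

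*Galr1*, at 18:82392496-82406777 on the minus strand, encodes a receptor for galanin, a peptide of islet nerves that inhibits insulin release. It was at 18.2, 15.1 and 18.3 FPKM in BKO libraries, against 13.1, 12.8 and 13.1 FPKM in flox/flox libraries. The flox/flox libraries were nearly equal and all lay below the BKO libraries, of which BKO 2 was lowest. The means were 17.2 ± 1.85 FPKM in BKO and 13.04 ± 0.183 FPKM in flox/flox (SD, n = 3 each). The log2 difference of *Galr1* was 0.38 ± 0.09 (SE, adjusted p = 0.0188 by limma). It did not pass without BKO 3 (0.33, adjusted p = 0.0749) or without flox/flox 1, 2 or 3 (0.39, 0.37 and 0.39, with adjusted p of 0.0507, 0.0505 and 0.057). The other galanin receptors split. *Galr2* was at 4.63, 5.95 and 4.56 FPKM in BKO libraries and 3.15, 3.72 and 3.70 FPKM in flox/flox libraries (log2 difference 0.46 ± 0.12, adjusted p = 0.0294 by limma), a call kept without BKO 1 and lost without each of the other libraries (adjusted p up to 0.084). *Galr3* was at 9.55, 7.85 and 7.51 FPKM in BKO libraries and 12.1, 12.2 and 12 FPKM in flox/flox libraries (log2 difference -0.52 ± 0.10, adjusted p = 0.00809 by limma). The galanin gene *Gal* had 11, 2 and 6 reads in BKO and 3, 7 and 7 reads in flox/flox.

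**Figure D4:**
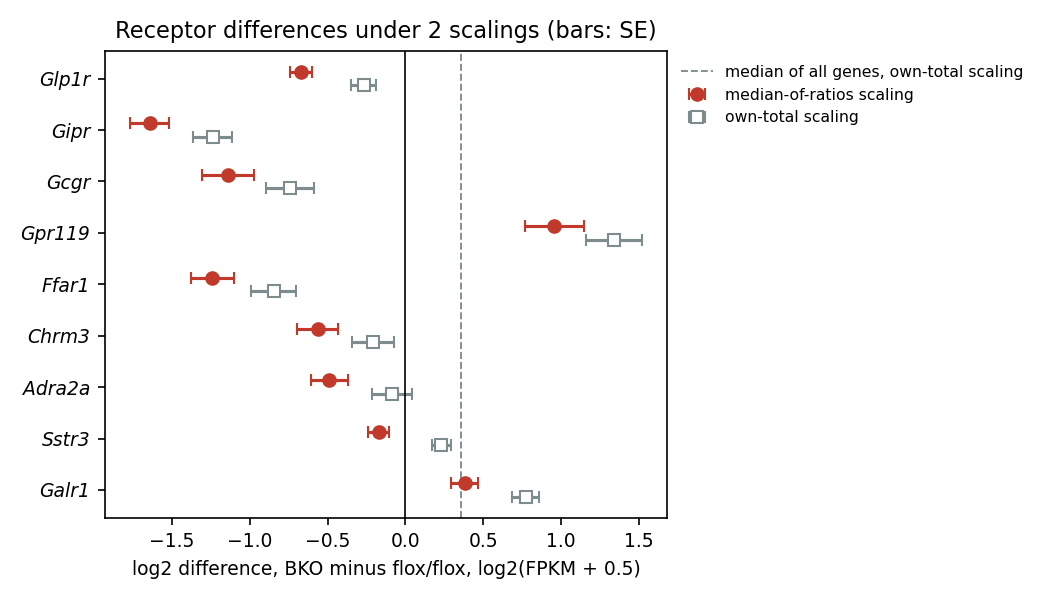
Log2 difference, BKO minus flox/flox, of the 9 tested receptors on the log2(FPKM + 0.5) scale with SE bars, for the deposited median-of-ratios scaling (filled) and own-total scaling (open); the dashed line is the median of all genes under own-total scaling. *Gipr*, *Gcgr*, *Ffar1* and *Glp1r* stay below 0 and *Gpr119* and *Galr1* above it under both scalings, whereas *Sstr3* is on either side.

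Ratios of pairs of receptors within a library need no scaling, and 6 pairs were compared. The ratio of *Glp1r* to *Gipr* was 0.888, 0.763 and 0.979 in BKO libraries, against 0.41, 0.484 and 0.439 in flox/flox libraries. In FPKM the pair was thus close to parity in BKO, while *Gipr* was over *Glp1r* in all 6 libraries. Which of them is higher depends on the gene models (1480 bases for *Glp1r* and 3482 for *Gipr*). The mean log2 ratio differed by 0.98 (exact permutation test, two-sided, p = 0.1, adjusted p = 0.2 over 6 pairs). With 3 libraries against 3 that test cannot go below 0.1. The ratio of *Ffar1* to *Gpr119* was 0.787, 1.45 and 1.01 in BKO libraries, against 3.95, 6.54 and 5.17 in flox/flox libraries. This was the largest difference of the 6 pairs, at -2.29 on the log2 scale (exact permutation p = 0.1, adjusted p = 0.2). The ratio of *Sstr3* to *Sstr2* was 41.9, 48.9 and 46.5 in BKO and 95.6, 102 and 58.6 in flox/flox (log2 difference -0.86, exact permutation p = 0.1, adjusted p = 0.2). It rests on 16 to 52 reads of *Sstr2* per library, which may not be separated from those of *Slc39a11*. The remaining pairs overlapped between groups. The ratio of *Glp1r* to *Gcgr* was 1.74, 3.00 and 2.43 in BKO and 1.51, 1.75 and 1.72 in flox/flox. That of *Gipr* to *Gcgr* was 1.96, 3.92 and 2.48 in BKO and 3.69, 3.62 and 3.91 in flox/flox. That of *Glp1r* to *Adra2a*, a stimulatory against an inhibitory receptor, was 1.03, 0.994 and 1.157 in BKO and 1.41, 0.993 and 1.24 in flox/flox, with a log2 difference of -0.18 (exact permutation p = 0.4, adjusted p = 0.4) that was -0.066 without flox/flox 1 and -0.32 without flox/flox 2. Without BKO 2 the difference of *Glp1r* to *Gcgr* was 0.31 in place of 0.49. That of *Gipr* to *Gcgr* was -0.26 without BKO 1 and -0.76 without BKO 2, in place of -0.49. In BKO 1 alone the ratio of *Glp1r* to *Gcgr*, at 1.74, lay within the flox/flox range of 1.51 to 1.75. Its ratio of *Gipr* to *Gcgr*, at 1.96, was below that of every flox/flox library.

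**Figure D5:**
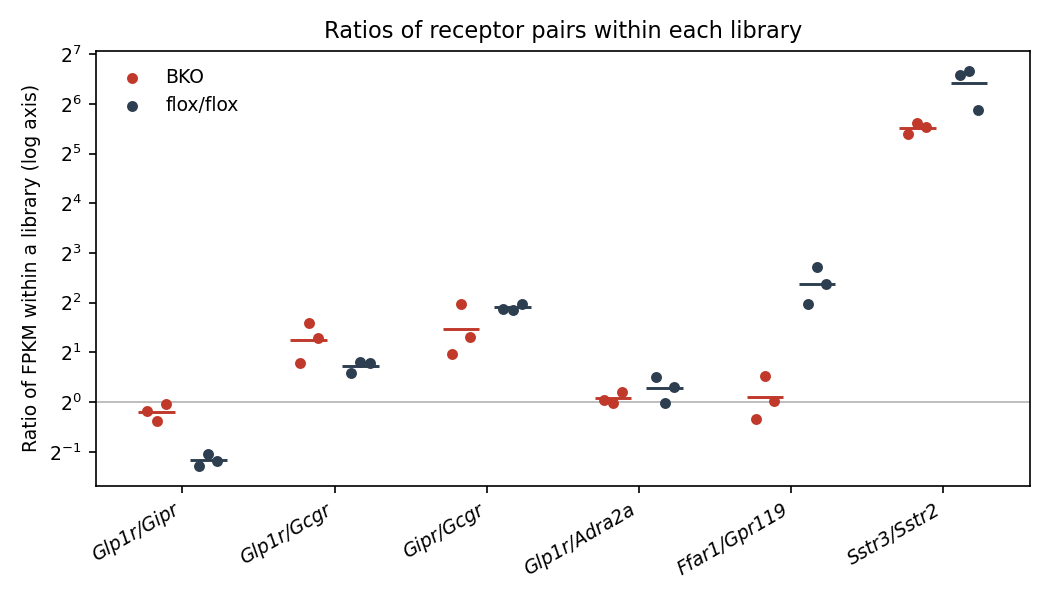
Ratio of FPKM of 6 receptor pairs within each library (log axis, base 2), BKO in red left of flox/flox in dark blue; lines are means of 3 libraries. *Glp1r*/*Gipr* is higher in every BKO library, *Ffar1*/*Gpr119* and *Sstr3*/*Sstr2* are lower in every BKO library, and the other pairs overlap. *Sstr2* had only 16 to 52 reads per library.

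The signalling genes around these receptors are given by list, to be read against the 34.0% of all tested genes that passed (16.9% higher and 17.2% lower). Of 47 listed genes of the cyclic AMP machinery, downstream of the Gs receptors, 34 were tested, of which 7 rose and 6 fell, a share near that of all genes, with a median log2 difference of -0.01, against -0.00452 over all tested genes. *Adcy7*, an adenylyl cyclase, averaged 3.02 ± 0.464 FPKM in BKO and 1.04 ± 0.0758 FPKM in flox/flox (SD, n = 3 each) and rose (log2 difference 1.18 ± 0.14, adjusted p = 0.00154 by limma). *Adcy7* is also an abundant cyclase of lymphocytes, whose markers were higher in BKO libraries, and the part of those cells in its rise was not tested. The phosphodiesterases *Pde3a* (0.70 ± 0.16) and *Pde7a* (0.63 ± 0.09), which break cyclic AMP down, rose, as did *Sik1*, a kinase gene induced by cyclic AMP (0.74 ± 0.17, with 8.99 ± 2.18 FPKM in BKO and 5.07 ± 0.356 FPKM in flox/flox). *Gnas*, the locus of the Gs α subunit, averaged 12.8 ± 0.596 FPKM in BKO and 9.26 ± 1.18 FPKM in flox/flox (SD, n = 3 each; log2 difference 0.45 ± 0.10, adjusted p = 0.0146 by limma); this locus holds several overlapping transcripts, so its count is uncertain. *Prkar1b*, a regulatory subunit of protein kinase A, and *Rapgef3*, which encodes the cyclic AMP sensor EPAC1, fell by 0.51 and 0.50 on the log2 scale. *Prkar1a*, the most abundant regulatory subunit of the list, was at a similar mean in BKO (106.8 FPKM) and flox/flox (110.8 FPKM) and did not pass the test. With own-total scaling 22 of the list were higher and 0 lower, beside 7550 higher and 716 lower of all 14497 tested genes. Without BKO 2 and 3 the median log2 difference of the list was 0.089.

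The Gq arm showed 3 genes that rose and 1 that fell among 19 tested of 24, a lower share than the 34.0% of all tested genes, with a median of 0.13. *Itpr1* and *Itpr3*, the inositol trisphosphate receptors that release calcium from the endoplasmic reticulum, rose by 0.75 ± 0.08 and 0.42 ± 0.10 on the log2 scale (adjusted p = 0.00101 and 0.0207 by limma). *Prkcd*, a protein kinase C isoform, rose by 0.64 ± 0.10. *Prkca*, another isoform, fell by 0.35 (SE 0.07), a direction that turned with own-total scaling (0.023, adjusted p = 0.796). *Gnaq* and *Gna11*, the G-protein α subunits that these receptors engage, were at 14.5 and 27.0 FPKM in BKO and 12.7 and 24.5 FPKM in flox/flox and did not pass the test. Without BKO 2 and 3 the median of this list was 0.078. With own-total scaling 14 of its genes were higher and 0 lower, beside 7550 higher and 716 lower of all 14497 tested genes.

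The Gi arm had 14 of 23 genes tested, of which 2 rose and 3 fell, a share near the 34.0% of all tested genes, with a median of -0.11. *Gng12* and *Gng4*, G-protein γ subunits, fell: *Gng12* averaged 62.2 ± 3.48 FPKM in BKO and 145 ± 26.3 FPKM in flox/flox (SD, n = 3 each; log2 difference -1.20 ± 0.13, adjusted p = 0.00127 by limma), and *Gng4* fell by 0.72 (SE 0.08). *Gng2* (0.63 ± 0.11) and *Gnao1*, the α subunit Go of neuroendocrine cells (0.54 ± 0.07), rose. With own-total scaling 9 genes of this list were higher and 2 lower, beside 7550 higher and 716 lower of all 14497 tested genes. Without BKO 2 and 3 the median of the list was -0.10.

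Regulators of receptor signalling, among them receptor kinases, arrestins, RGS proteins that switch G proteins off and RAMP proteins that modify receptors, had 5 genes that rose and 9 that fell of 24 tested, beside 16.9% higher and 17.2% lower over all tested genes. Their median was 0.19, a sign opposite to the balance of the calls. *Gpsm1*, an activator of G-protein signalling, averaged 12.1 ± 1.28 FPKM in BKO and 30.2 ± 1.58 FPKM in flox/flox (log2 difference -1.29 ± 0.09, adjusted p = 0.000265 by limma). *Rgs5*, known from pericytes, fell by 0.95 (SE 0.07), while the 8 endothelial markers all fell too, with a median of -0.75, and the part of vessel cells was not tested. *Ramp3* fell by 0.93 (SE 0.12) and *Rgs10*, expressed in immune cells, rose by 0.74 ± 0.14. The arrestin gene *Arrb2* fell by 0.50 (SE 0.13) and the receptor kinases split, with *Grk5* lower (-0.65 ± 0.12) and *Grk6* higher (0.58 ± 0.08). With own-total scaling 14 genes of this list were higher and 4 lower, beside 7550 higher and 716 lower of all 14497 tested genes. Without BKO 2 and 3 the median of the list was 0.11.

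Of the ligands and their processing enzymes, 9 of 17 genes were tested, of which 2 rose and 1 fell, a share near the 34.0% of all tested genes. With own-total scaling 5 were higher and 1 lower, beside 7550 higher and 716 lower of all 14497 tested genes. *Th*, the first enzyme of catecholamine synthesis, was at 4.75 ± 0.286 FPKM in BKO and 16.2 ± 1.11 FPKM in flox/flox (SD, n = 3 each) and fell by 1.66 (SE 0.08) on the log2 scale (adjusted p = 7.47e-05 by limma). *Pcsk1*, the convertase that makes GLP-1 from proglucagon and also cuts proinsulin, averaged 181 ± 36.9 FPKM in BKO and 115 ± 7.86 FPKM in flox/flox (log2 difference 0.63 ± 0.15, adjusted p = 0.0209), and *Dpp4*, the enzyme that inactivates the incretins, rose by 0.23 ± 0.07 (adjusted p = 0.033). *Dpp4* is also a brush-border enzyme of enterocytes, whose marker sum was higher in BKO, and their part was not tested. Neither the *Pcsk1* nor the *Dpp4* call held in every fit that left out 1 library, where the adjusted p reached 0.0726 and 0.123. *Gcg*, which encodes glucagon and GLP-1, was at 10005, 6367 and 8061 FPKM in BKO libraries, against 8883, 5627 and 7682 FPKM in flox/flox libraries, ranges that overlap (adjusted p = 0.702). *Gip* had 4, 59 and 21 reads in BKO 1, 2 and 3 and 0 reads in every flox/flox library, and did not pass the test (adjusted p = 0.0596). BKO 2, with most *Gip* reads, also had most enterocyte signal.

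Among 87 other G-protein-coupled receptors listed, 30 were tested, of which 9 rose and 6 fell, with a median of 0.12, beside 16.9% higher and 17.2% lower over all tested genes. Among the tested genes of that list *Ffar3* had the largest decrease and *Casr*, the calcium-sensing receptor, the largest increase passing the test. *Casr* averaged 17.6 ± 1.27 FPKM in BKO and 7.93 ± 0.48 FPKM in flox/flox (SD, n = 3 each; log2 difference 1.10 ± 0.08, adjusted p = 0.000306 by limma). *Calcrl*, the partner of RAMP proteins in adrenomedullin and CGRP receptors and abundant on endothelium, fell by 0.75 (SE 0.11), beside the decrease of the endothelial markers. With own-total scaling 16 of the list were higher and 2 lower, beside 7550 higher and 716 lower of all 14497 tested genes. Without BKO 2 and 3 the median of the list was 0.15.

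The counts of these lists depended on single libraries, as did the count over all tested genes. With 1 library left out at a time, 2780 (without BKO 3) to 4236 of all tested genes passed, in place of 4935. Without flox/flox 3 that number was 3291. The cyclic AMP genes that rose numbered 4 to 9 in these fits and those that fell 1 to 5, with the fewest of both without BKO 3. The Gq genes that rose numbered 2 to 5, and the Gi genes that fell 2 to 4. Among the regulators 2 to 8 rose and 6 to 9 fell, with the fewest of both without flox/flox 3. Among the ligands and enzymes 0 to 3 rose, and among the other receptors 2 to 6 rose and 4 to 7 fell, with the fewest risers without BKO 3 in both lists and, for the ligands, equally few without flox/flox 1 or 3. *Adcy7*, *Pde7a*, *Itpr1*, *Prkcd*, *Gng12*, *Gng4*, *Gng2*, *Gnao1*, *Gpsm1*, *Rgs5*, *Ramp3*, *Rgs10*, *Th*, *Ffar3*, *Casr* and *Calcrl* passed in each of these fits, whereas *Sik1* (adjusted p up to 0.0702), *Pde3a* (0.0812), *Itpr3* (0.0704), *Gnas* (0.0542), *Prkar1b* (0.0522), *Rapgef3* (0.0919) and *Arrb2* (0.092) did not pass in at least 1. With the third library of both groups left out, 1 cyclic AMP gene, 1 Gq gene, 0 Gi genes, 0 regulators, 0 ligands and 1 other receptor passed as higher, and 0, 0, 2, 2, 1 and 1 as lower, in the same order. Of all tested genes, 505 passed as higher and 420 as lower in that fit.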

How the data were processed

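Groups and replicate numbers came from the sample titles. TriPure was used for total RNA and standard Illumina libraries were made, per the labels' protocols. The tools named in the submitters' processing notes are HISAT2 2.0.5 with featureCounts 1.5.0-p3, along with DESeq2 1.16.1 and the assembly GRCm38 (patch 6), and their settings and the strandedness were not found in these sources. The authors deposited FPKM values for 54556 genes. FPKM multiplied by gene length fell on whole multiples of 1 step per library (tolerance 0.1 reads, step from the 300 lowest values), which gave the reads. A median-of-ratios scaling was already contained in the deposited values, so the typical gene is set to no change and total RNA per cell is not measured. The divisor over the own read total was 1.13 to 1.17 in BKO and 0.855 to 0.885 in flox/flox.

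A test was made of genes with a mean of at least 1 FPKM, in limma 3.58.1 under R 4.3.3 (lmFit, eBayes with trend) on log2(FPKM + 0.5), two-sided, with Benjamini-Hochberg adjustment over 14497 genes. This scale understates changes of low genes. The code was tested on simulated data. The labels tie no library to an animal, so the p-values cover only the variation among the 6 libraries, which may be technical, and would be too small if replicate 3 held RNA of replicates 1 and 2. The members and gene lists were chosen with earlier results of these data known. The genes named beside the members were *Mettl3*, the up to 4 genes of each pathway list that passed with the greatest differences in either direction, and the members' ligands and nearest paralogs, of which 1 gene is not reported here; *Prkar1b*, *Prkar1a*, *Rapgef3*, *Arrb2*, *Grk5*, *Grk6*, *Gnaq* and *Gna11* were chosen after their values were seen. All 311 list genes were in the table, and 0 per-sample columns were left out. Alternatives were other pseudocounts, minimum levels, scalings, voom on the recovered reads, a fit without the variance trend, a replicate block and leaving out libraries; leaving out the third library of both groups was chosen after seeing the data.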

Additional observations from a re-analysis of the deposited data

How the results depend on the processing

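*Glp1r*, *Gipr* and *Ffar1* passed as lower under all 17 alternatives run (*Glp1r* -0.76 to -0.27, *Gipr* -1.76 to -1.24, *Ffar1* -1.51 to -0.85 on the log2 scale). The count of 4935 genes called became 3090 with a minimum mean of 5 FPKM, 8266 with own-total scaling (7550 higher and 716 lower, 91.3% higher against 49.6%), 1317 without BKO 2 and 3, 925 without the third library of both groups, and 2780 (without BKO 3) to 4236 when 1 library was left out. Without BKO 2 and 3, which leaves 1 BKO library assumed to vary like the flox/flox libraries, *Gcgr* (-0.82), *Gpr119* (1.08), *Chrm3* (-0.47) and *Adra2a* (-0.55) did not pass. Without the third library of both groups, chosen after seeing the data, *Gcgr* (-1.14), *Gpr119* (0.79), *Chrm3* (-0.67), *Adra2a* (-0.45) and *Galr1* (0.34) did not pass. With own-total scaling, *Chrm3* (-0.21) and *Adra2a* (-0.088) did not pass, *Sstr3* turned to 0.23, *Sstr2* was at 0.66 and *Prkca* turned to 0.023. Leaving out 1 library gave -0.66 to -0.43 for *Chrm3*, -0.60 to -0.39 for *Adra2a*, 0.33 to 0.47 for *Galr1* and -0.045 to 0.31 for *Gcg*. *Sst* was at 0.40 with quantile normalization. The causes were not tested. No pair ratio changed sign under any alternative run. The minimum of 5 FPKM left no value for *Chrm3*.

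With a replicate block 4659 genes passed and no receptor's call changed. Same-numbered libraries correlated by 0.081, 0.075 and 0.042 in their deviations from the group means, so the numbers were not taken to pair them, although each library correlated best with its own number. Counting error limits *Sstr2*, with 16 to 52 reads per library, more than the other receptors.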
